A study of Homo sapiens with 6 samples.

Results

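Transforming growth factor beta (TGF-beta) signalling and fibrosis genes were examined in Cisplatin-treated HK-2 cells after silencing of NAT10. The 9 genes, TGFB1, TGFB2, TGFBR1, TGFBR2, SMAD3, SMAD7, TGFBI, FN1 and THBS1, were chosen by name as ligands, receptors, signal transducers and matrix products of the pathway. Earlier results of these data were known when they were chosen. Each matched 1 of the 62754 genes in the count table. HK-2 is an immortalised line of human proximal tubule epithelium, and NAT10 is an acetyltransferase that modifies cytidine in RNA. All cells had received Cisplatin, and they carried either a negative control siRNA (CP+siNC, 3 libraries) or an siRNA against NAT10 (CP+siNAT10, 3 libraries). Cisplatin dose, exposure time and siRNA sequence were not given in the labels, and no library from cells without Cisplatin was part of the comparison, so levels refer to Cisplatin-treated cells only. Total counts were 19321665, 21602988 and 19464027 in CP+siNC and 20793709, 21531774 and 25192736 in CP+siNAT10. The labels do not say whether libraries of a group came from separate cultures, so p-values measure the spread between these libraries, which may be technical.

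TGF-beta ligands are secreted in a latent complex, are released by proteases, integrins or thrombospondin, and bring a type II and a type I receptor kinase together on the cell surface. The type I receptor phosphorylates SMAD2 and SMAD3, which join SMAD4 and enter the nucleus, while SMAD7 is induced by the pathway and restrains it. In the kidney, prolonged signalling is known for matrix deposition by tubular cells and fibroblasts and for tubulointerstitial fibrosis.

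Levels are given in CPM, counts relative to library sizes scaled by TMM. NAT10, the targeted gene, was at 75.8, 71.4 and 73.2 CPM in CP+siNC and at 41.3, 40.5 and 42.5 CPM in CP+siNAT10. Every library labelled with NAT10 siRNA lay below every control library. The log2 fold change was -0.82 (SE 0.0426, adjusted p = 2.79e-15, edgeR quasi-likelihood test with Benjamini-Hochberg adjustment over 19874 genes, n = 3 per group), which leaves 56.5% of the control level.

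The cell type was checked against marker genes. Keratin genes were abundant, with KRT8 at 1455 CPM in CP+siNC and 1450 CPM in CP+siNAT10, while its partner KRT18 fell from 346 to 269 CPM (log2 fold change -0.36, adjusted p = 3.79e-10, edgeR). The epithelial adhesion gene EPCAM rose from 15.52 to 19.27 CPM (0.31, adjusted p = 0.000902), and the renal transcription factor gene PAX8 from 31.4 to 47.2 CPM (0.59, adjusted p = 1.58e-09). The 8 proximal tubule markers summed to 44.8, 44.9 and 43.1 CPM in CP+siNC and to 41.8, 38.5 and 41.2 CPM in CP+siNAT10, led by GGT1, which fell (-0.28, adjusted p = 9.92e-05), whereas the glucose transporter gene SLC5A2 rose from 9.30 to 11.6 CPM (0.31, adjusted p = 0.00363). Only 3 of the 8 passed the filter on low counts, and the apical uptake receptors LRP2 and CUBN and the phosphate transporter SLC34A1 did not, with LRP2 at 1 count in CP+siNC and 2 counts in CP+siNAT10. The epithelial cadherin CDH1 was also below the filter, at 0.0510 and 0.0442 CPM. The 6 fibroblast markers summed to 22.1, 23.5 and 21.9 CPM in CP+siNC and to 23.4, 30.2 and 24.4 CPM in CP+siNAT10, LUM was the most abundant of them in every CP+siNC library and COL1A1 in every CP+siNAT10 library, and PDGFRA had 4 counts in each group while FAP had 0 and 1 and PDGFRB 21 and 9, lower in every CP+siNAT10 library and not tested. The 4 endothelial markers summed to at most 0.514 CPM in any library, and none was tested. Of the 4 immune markers, the lysosomal gene CD68 made up most of the sum, which was 209, 198 and 216 CPM in CP+siNC and 288, 265 and 268 CPM in CP+siNAT10, while the leukocyte gene PTPRC had 25 and 56 counts in total and the T cell gene CD3E 16 and 22. CD68 rose (0.40, adjusted p = 7.97e-10), and PTPRC was called higher (0.96, adjusted p = 0.0411). The call of PTPRC was lost with DESeq2 (0.97) and without CP+siNC replicate 1 (0.96), CP+siNC replicate 2 (1.04), CP+siNC replicate 3 (0.86) or CP+siNAT10 replicate 2 (0.46). PTPRC passed the filter on low counts only through CP+siNAT10, where it was high, so no rise is read from its call. The part of these marker differences in the results was not tested. Fewer cells of a kind and less RNA per cell cannot be told apart in bulk RNA.

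All 9 genes had at least 10 counts in every library, so none was low, and all were tested. The adjusted p was under 0.05, the threshold for calling a gene, in 7 of 9: TGFB2, TGFBR2, TGFBI and FN1 rose, and TGFB1, TGFBR1 and THBS1 fell. Across all genes tested, 44.1% were called, 21.8% higher and 22.3% lower, so calls were frequent among all genes. A log2 fold change over 1 in size together with an adjusted p under 0.05 was reached by 1 of the 9 genes, THBS1, against 2.33% of all genes tested. The median log2 fold change of the 9 genes was 0.12, beside 0.007 for all genes tested. Ligand, receptor and matrix genes were thus each found on both sides.

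Levels were compared between genes per kilobase of the gene length in the table. This is a single value per gene, from 3264 bases for TGFB1 to 17216 for FN1. The transcripts made in these cells may differ from it in length, so the order between genes depends on these lengths. In CP+siNC, FN1 was highest at 49.8 ± 1.09 CPM per kilobase (SD, n = 3), followed by TGFB2 at 40.9 ± 2.70, TGFBI at 25.0 ± 0.643, TGFB1 at 23.4 ± 1.03, THBS1 at 14.7 ± 0.278, SMAD3 at 7.34 ± 0.0552, TGFBR1 at 4.28 ± 0.146, TGFBR2 at 2.09 ± 0.170 and SMAD7 at 1.91 ± 0.123. Among the 9 genes, ligand and matrix mRNAs thus stood above receptor and SMAD mRNAs per length in CP+siNC, whereas TGFB3, a ligand gene outside the 9, was at 6.39 ± 0.675 and below SMAD3. The ranges of TGFBI (24.33 to 25.62) and TGFB1 (22.65 to 24.54) overlapped in this order, as did those of TGFBR2 and SMAD7. Both genes of a pair were read in the same libraries, so overlapping ranges do not show that their levels were equal. In CP+siNAT10, TGFBI at 33.5 ± 0.815 and TGFB1 at 15.03 ± 0.480 no longer overlapped, nor did TGFBR2 at 2.72 ± 0.211 and SMAD7 at 2.08 ± 0.0394, and THBS1 at 6.83 ± 0.282 stood below SMAD3 at 7.77 ± 0.355. By CPM, FN1 ranked 124th of the genes tested in CP+siNC and 45th in CP+siNAT10.

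TGFB1 (ENSG00000105329, chr19:41301587-41353922 on GRCh38) encodes the ligand most often linked to renal fibrosis. It was at 73.9, 80.1 and 74.7 CPM in CP+siNC and at 47.3, 49.8 and 50.1 CPM in CP+siNAT10. All CP+siNAT10 libraries were low, and the groups did not overlap. The log2 fold change was -0.64 (SE 0.0432, adjusted p = 1.01e-12, edgeR quasi-likelihood test with Benjamini-Hochberg adjustment), a fall to 64.4% of the control level. TGFB2 (ENSG00000092969, chr1:218345336-218444619) encodes a second isoform whose precursor shares the same latent architecture. It was at 238, 266 and 238 CPM in CP+siNC and at 268, 294 and 287 CPM in CP+siNAT10. The highest control library lay just below the lowest NAT10-silenced library, so the groups were separated by a narrow gap. The rise was small, with a log2 fold change of 0.19 (SE 0.0406, adjusted p = 0.000248, edgeR).

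TGFB3, the remaining isoform, was at 33.4 ± 3.52 CPM in CP+siNC and 32.9 ± 1.43 CPM in CP+siNAT10 (SD, n = 3), with overlapping groups and a log2 fold change of -0.02 (SE 0.0597, adjusted p = 0.794, edgeR) whose sign turned with library size scaling alone (0.01). Per kilobase, TGFB2 made up 57.4%, 58.3% and 58.0% of the summed level of the 3 ligands in CP+siNC and 68.3%, 69.0% and 68.8% in CP+siNAT10. TGFB1 made up 33.0%, 32.5% and 33.7% in CP+siNC and 22.3%, 21.7% and 22.2% in CP+siNAT10. TGFB2 was thus the predominant ligand mRNA in all 6 libraries and its share was higher by 10.8 percentage points in CP+siNAT10, from 57.9% ± 0.453 to 68.7% ± 0.339 (SD, n = 3; exact two-sided permutation p = 0.1, the smallest that 3 against 3 libraries allow). The share of TGFB3 was 9.04% ± 0.651 and 9.26% ± 0.214 (exact two-sided permutation p = 0.8).

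**Figure D1:**
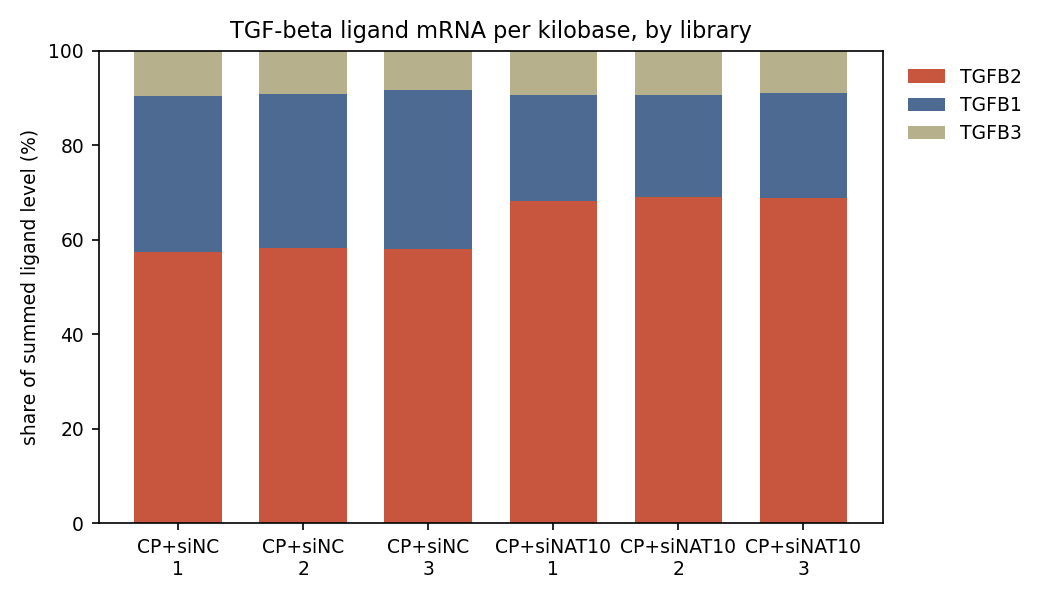
Share (vertical axis, percent) of each TGF-beta isoform in the summed CPM per kilobase of TGFB1, TGFB2 and TGFB3, with 1 bar per library. The TGFB2 segment ends between 57.4% and 58.3% in CP+siNC and between 68.3% and 69.0% in CP+siNAT10.

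Several genes overlap the ligand genes on the opposite strand, and although the library kit keeps the strand, the strand setting of the counting was not given. TGFB2-AS1, an antisense RNA across the start of TGFB2 (chr1:218344190-218346015), had 23960 counts over the 6 libraries beside 34119 for TGFB2, and its log2 fold change was 0.20 (SE 0.0451, adjusted p = 0.000722, edgeR). HNRNPUL1, which runs into the TGFB1 locus from the other strand, had 27508 counts beside 7899 for TGFB1 and a log2 fold change of -0.41 (SE 0.0327, adjusted p = 3.11e-11, edgeR). These partners, TGFB2-AS1 and HNRNPUL1, moved in the same direction as the ligand gene they overlap, and the part of shared reads in the ligand values was not tested. CCDC97, inside the TGFB1 locus on the other strand, had 3910 counts and was not called (log2 fold change -0.01, adjusted p = 0.904, edgeR). Nor were TMEM91 and ENSG00000255730, which overlap TGFB1 on the other strand with 12.9% and 25.6% of its counts (log2 fold changes 0.19 and -0.09, adjusted p = 0.109 and 0.340). On the strand of TGFB1, ENSG00000286177 had 9.87% of its counts and a log2 fold change of -0.29 (adjusted p = 0.0449), a call lost in 9 of 14 alternatives, among them the fits without CP+siNC replicate 1 (-0.32), CP+siNC replicate 2 (-0.21), CP+siNAT10 replicate 2 (-0.18) or CP+siNAT10 replicate 3 (-0.31). On the strand of TGFB2, TGFB2-OT1 had 4.14% of its counts and rose by 0.36 on the log2 scale (adjusted p = 0.00308), a call lost without CP+siNC replicate 1 (0.24). For THBS1, the antisense partners FSIP1 and THBS1-AS1 had counts equal to 3.61% and 1.64% of those of THBS1, and they fell with it, by 0.93 and 0.72 on the log2 scale (adjusted p = 5.39e-06 and 0.00535, edgeR). Genes overlapping TGFBR1, TGFBR2 and SMAD3 had counts of at most 1.77% of those of the gene they overlap, and no gene overlapped SMAD7, TGFBI or FN1.

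The receptors also moved apart. TGFBR1 (ENSG00000106799, chr9:99104038-99149448), the type I receptor kinase that phosphorylates SMADs, was at 34.8, 34.9 and 32.8 CPM in CP+siNC and at 26.0, 26.1 and 28.9 CPM in CP+siNAT10. The groups did not overlap, with the CP+siNAT10 library of replicate 3 the nearest to the controls. The log2 fold change was -0.34 (SE 0.0537, adjusted p = 7.31e-06, edgeR). TGFBR2 (ENSG00000163513, chr3:30606601-30694142), the type II receptor that binds the ligand, was at 14.7, 13.0 and 15.3 CPM in CP+siNC and at 18.95, 17.0 and 19.8 CPM in CP+siNAT10. Its libraries were also apart, in the opposite direction, with a log2 fold change of 0.38 (SE 0.0741, adjusted p = 9.69e-05, edgeR).

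SMAD3 and SMAD7 were not called. SMAD3 (ENSG00000166949, chr15:67063763-67193180), the transducer that carries the signal to fibrotic genes, was at 73.1, 74.1 and 73.3 CPM in CP+siNC and at 75.4, 81.9 and 76.1 CPM in CP+siNAT10. Although the groups did not overlap, the log2 fold change of 0.08 (SE 0.0401, adjusted p = 0.103, edgeR) missed the threshold, and it passed only when libraries were scaled by size alone (0.12). SMAD7 (ENSG00000101665, chr18:48919853-48950424), the inhibitory SMAD, had the lowest counts of the 9 genes, at 7.28, 7.24 and 8.10 CPM in CP+siNC and at 8.36, 8.05 and 8.17 CPM in CP+siNAT10. Its groups overlapped, and the log2 fold change was 0.12 (SE 0.0935, adjusted p = 0.315, edgeR).

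FN1 (ENSG00000115414, chr2:215360440-215436073) encodes fibronectin, a matrix glycoprotein that cells assemble into fibrils through integrins. It was at 844, 879.5 and 851 CPM in CP+siNC and at 1383, 1428 and 1378 CPM in CP+siNAT10. All CP+siNAT10 libraries lay far above the controls. The rise was 1.63-fold (log2 fold change 0.70, SE 0.0333, adjusted p = 4.63e-16, edgeR), and 7.25% of all genes tested had a larger change in either direction. TGFBI (ENSG00000120708, chr5:136028988-136063815) encodes a secreted, TGF-beta-inducible adapter between matrix and integrins. It was at 193, 198 and 188 CPM in CP+siNC and at 251, 260.0 and 264 CPM in CP+siNAT10, again without overlap. The rise was 1.34-fold (log2 fold change 0.42, SE 0.0338, adjusted p = 2.91e-11, edgeR).

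THBS1 (ENSG00000137801, chr15:39581079-39595529) encodes thrombospondin-1, a matricellular glycoprotein that can release TGF-beta from its latent complex. It was at 132, 135 and 137 CPM in CP+siNC and at 59.7, 64.7 and 63.2 CPM in CP+siNAT10. The CP+siNAT10 libraries were all low, and the gap between the groups was wider than the range within either. The log2 fold change was -1.11 (SE 0.0384, adjusted p = 4.85e-19, edgeR), a fall to 46.4% of the control level. This was the largest change of the 9 genes, and 305 of 19874 genes (1.53%) had a larger one. Over 12303 other genes averaging 5 CPM or more, those whose levels over the 6 libraries were most like those of THBS1 were YPEL2, ATG3 and HSPA13, with root-mean-square differences of mean-centred log2 CPM of 0.0332, 0.0355 and 0.0403. YPEL2 went from 7.51 to 3.42 CPM, ATG3, which encodes an enzyme of autophagosome formation, from 152 to 73.0 CPM, and HSPA13, which encodes a microsomal chaperone of the HSP70 family, from 42.7 to 19.8 CPM.

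**Figure D2:**
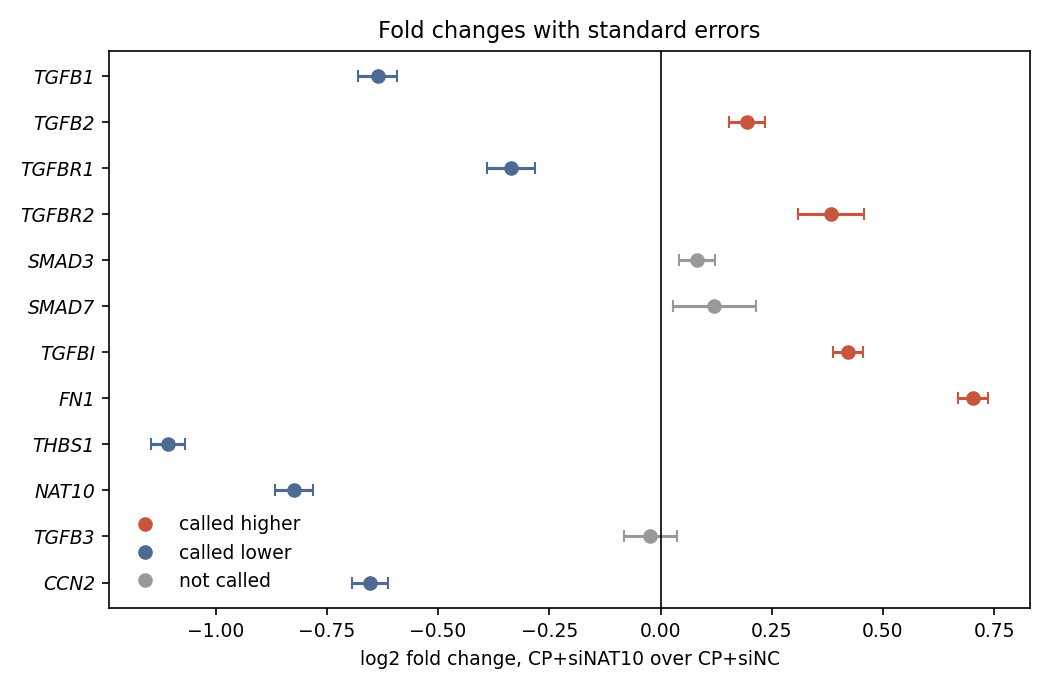
Log2 fold change of CP+siNAT10 over CP+siNC (horizontal axis) with its standard error for the 9 genes, NAT10, TGFB3 and CCN2; red, called higher; blue, called lower; grey, not called. THBS1 lies lowest at -1.11 and FN1 highest at 0.70.

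Promoter windows of these genes, 250 bases before to 50 bases after a start, were read from RefSeq (GRCh38.p14) and searched on both strands for the SMAD palindrome GTCTAGAC and the shorter SMAD motif CAGAC. All 9 genes matched, with 23 windows between them since several genes have more than 1 start, and CCN1 had no entry. The palindrome, held by 0.202% of 35116 windows, was in none of the 23. CAGAC was in 11 of 23 windows (47.8%), belonging to TGFB2, TGFBR1, SMAD3, SMAD7 and THBS1, beside 45.3% of all windows. Motifs TGACTCA of AP-1 (4.95% of all windows), GGAATG of TEAD factors (14.03%) and TGACGTCA of the cyclic AMP response element (1.85%) were added after the values had been seen. None of these overlaps CAGAC in the windows shown. The windows of THBS1 and FN1 are given because these genes had the largest changes, downwards and upwards, those of TGFB1 and TGFB2 because the ligands moved apart, and that of CCN2 because this target gene fell with THBS1. Capitals mark every match, and sequences read 5′ to 3′ on the strand of the gene.
THBS1, chr15:39580829-39581128, plus strand: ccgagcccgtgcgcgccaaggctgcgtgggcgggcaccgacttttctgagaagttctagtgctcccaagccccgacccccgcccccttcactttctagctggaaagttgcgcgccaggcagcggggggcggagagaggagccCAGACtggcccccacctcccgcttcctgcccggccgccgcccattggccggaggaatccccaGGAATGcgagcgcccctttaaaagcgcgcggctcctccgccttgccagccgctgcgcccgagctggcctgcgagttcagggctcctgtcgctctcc
CCN2, chr6:131951323-131951622, minus strand: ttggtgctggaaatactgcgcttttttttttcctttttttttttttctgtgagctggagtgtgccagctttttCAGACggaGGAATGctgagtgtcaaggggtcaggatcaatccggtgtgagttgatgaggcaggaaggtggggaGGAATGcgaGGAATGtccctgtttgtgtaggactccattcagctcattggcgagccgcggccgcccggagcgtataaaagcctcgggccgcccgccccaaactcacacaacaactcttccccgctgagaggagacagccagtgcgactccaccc
FN1, chr2:215436019-215436318, minus strand: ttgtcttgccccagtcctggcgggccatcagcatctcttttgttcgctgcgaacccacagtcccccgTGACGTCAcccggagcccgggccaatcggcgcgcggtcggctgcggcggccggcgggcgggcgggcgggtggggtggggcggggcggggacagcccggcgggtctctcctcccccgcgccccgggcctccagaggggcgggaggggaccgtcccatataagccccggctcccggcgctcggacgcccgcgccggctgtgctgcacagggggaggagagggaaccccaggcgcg
TGFB2, chr1:218345086-218345385, plus strand: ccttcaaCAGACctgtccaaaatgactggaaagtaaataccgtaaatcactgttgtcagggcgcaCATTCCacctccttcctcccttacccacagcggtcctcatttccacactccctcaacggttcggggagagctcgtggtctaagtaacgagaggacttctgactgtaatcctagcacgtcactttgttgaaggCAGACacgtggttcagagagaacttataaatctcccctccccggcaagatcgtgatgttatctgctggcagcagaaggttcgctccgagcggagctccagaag
TGFB1, chr19:41353873-41354172, minus strand: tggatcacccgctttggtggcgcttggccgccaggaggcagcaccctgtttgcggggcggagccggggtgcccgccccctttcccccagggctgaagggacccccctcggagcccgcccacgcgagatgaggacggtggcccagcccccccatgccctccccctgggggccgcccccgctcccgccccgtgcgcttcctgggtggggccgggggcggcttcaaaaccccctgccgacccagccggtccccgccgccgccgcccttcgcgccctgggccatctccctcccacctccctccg

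The THBS1 window held CAGAC at -108 and GGAATG at -46, counted from the start to the leftmost base of the match. The CCN2 window held CAGAC at -177 and GGAATG at -169, -104 and -95, and 0.128% of all windows held GGAATG at least 3 times. FN1 held neither and had TGACGTCA at -183. TGFB2 held CAGAC at -243 and -53 and CATTCC, the reverse complement of GGAATG, at -185, while TGFB1 held none of the 5 motifs. LOX, a matrix gene that fell (log2 fold change -1.43), held GGAATG in none of its 3 windows. TGFBR1, which also fell, held it in 1 of 8. G and C made up 77.3% of the TGFB1 window and 51.7% of the TGFB2 window, beside a median of 58.7% over all windows. A match describes letters only, and binding at these places was not tested.

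Release of the ligand involves latent TGF-beta binding proteins, furin and integrins. Of 9 tested genes of latency and activation, 2 were called higher and 1 lower (33.3%, beside 44.1% of all genes tested). Their median log2 fold change was -0.04, beside 0.007 for all genes tested. The 2 called higher, ITGB6 and ITGB8, were tested only because of their CP+siNAT10 levels, so this count shows no rise. FURIN, which encodes the protease that cleaves the ligand precursor, fell from 20.5 ± 1.59 to 14.5 ± 0.335 CPM (SD, n = 3; log2 fold change -0.51, adjusted p = 4.96e-07, edgeR). ITGB6 and ITGB8 encode integrin beta subunits that activate latent TGF-beta and lie below the level set for naming genes. They went from 0.444 to 1.19 CPM and from 0.797 to 1.64 CPM (log2 fold changes 1.43 and 1.03, adjusted p = 0.000440 and 0.00221, edgeR). With 26 and 48 counts in total in CP+siNC, both passed the filter on low counts only through CP+siNAT10, where they were high. No rise is therefore read from these calls. ITGAV, the alpha partner of both, was at 138 and 141 CPM and was not called (adjusted p = 0.383, edgeR). With the stricter filter, which left out ITGB6 and ITGB8, none of these genes was called higher. A second gene was called lower without CP+siNC replicate 1 (LTBP4, -0.15) and without CP+siNAT10 replicate 2 (LTBP2, -0.34).

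Related ligands numbered 5 tested genes, with 1 higher and 2 lower (60.0% called, beside 44.1% of all genes tested). Their median log2 fold change was 0.15. INHBA, which encodes the activin A subunit, a ligand that signals through the same SMADs, was at 594, 598 and 595 CPM in CP+siNC and at 1029, 1026 and 1072 CPM in CP+siNAT10. Its groups were far apart and it rose by 0.81 on the log2 scale (SE 0.0327, adjusted p = 1.53e-17, edgeR). GDF11 fell from 77.1 to 63.5 CPM (log2 fold change -0.28, adjusted p = 4.71e-06, edgeR) and GDF15 from 18.1 to 15.1 CPM (-0.27, adjusted p = 0.00546). The call of GDF15 was lost without CP+siNC replicate 3 (-0.20) or CP+siNAT10 replicate 3 (-0.19).

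Of 4 tested secreted antagonists, none rose and 3 fell (median log2 fold change -0.38). FSTL3, which encodes an activin-binding follistatin-like protein, fell from 88.7 to 64.0 CPM (log2 fold change -0.47, adjusted p = 4.60e-11, edgeR), and follistatin itself, FST, from 1.65 to 0.725 CPM (-1.19, adjusted p = 0.000247). FST lies below the level set for naming genes, with 98 and 49 counts in total, and the stricter filter left it out. The BMP antagonist GREM1 fell from 207 to 170.2 CPM (-0.28, adjusted p = 7.90e-08). INHBA, the activin subunit gene, thus rose while FSTL3 fell, as did FST at its low level.

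Among 10 other tested receptors of the family, 2 rose and 1 fell (30.0% called, beside 44.1% of all genes tested). Their median log2 fold change was 0.02. ACVR1, a type I receptor for BMP ligands, rose from 4.72 to 7.02 CPM (log2 fold change 0.57, adjusted p = 0.000161, edgeR), and the BMP type II receptor BMPR2 fell from 12.8 to 9.71 CPM (-0.40, adjusted p = 0.000261). The call of ACVRL1 (0.43, adjusted p = 0.0347) was lost with DESeq2 (0.42) and without CP+siNC replicate 2 (0.31), CP+siNAT10 replicate 2 (0.45) or CP+siNAT10 replicate 3 (0.29). ACVR1B, at 44.8 and 41.6 CPM (-0.11, adjusted p = 0.0556), was called lower with RLE scaling (-0.11), upper quartile scaling (-0.11) and the stricter filter (-0.11). Without CP+siNC replicate 1, ACVR1B was called lower (-0.13) and ACVR2A higher (0.44).

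Other SMADs and SMAD regulators were called in 15 of 19 tested genes, 10 higher and 5 lower (78.9%, beside 44.1% of all genes tested). Their median log2 fold change was 0.16. With the stricter filter on low counts, 8185 of 14775 genes were called. SKI, which encodes a corepressor that binds SMADs on DNA, rose from 37.9 ± 0.914 to 54.5 ± 1.43 CPM (SD, n = 3; log2 fold change 0.52, adjusted p = 1.21e-10, edgeR), whereas its relative SKIL fell from 117 ± 6.29 to 93.6 ± 3.40 CPM (-0.32, adjusted p = 1.97e-07). PPM1A, a phosphatase that acts on SMAD2 and SMAD3, fell from 59.7 to 40.6 CPM (-0.55, adjusted p = 1.14e-10), and the ubiquitin ligase SMURF2, which SMAD7 recruits to receptors, fell from 40.4 to 29.4 CPM (-0.46, adjusted p = 1.67e-08). The other two genes that fell were SMAD5 and TRIM33 (-0.18 and -0.24). SMAD4, the common partner, rose by 0.20 on the log2 scale (adjusted p = 0.00176, edgeR), and SMAD2 was at 26.4 and 25.4 CPM (log2 fold change -0.06, adjusted p = 0.397). PMEPA1, a TGF-beta-induced inhibitor of receptor signalling, rose from 55.8 to 67.5 CPM (0.28, adjusted p = 7.18e-06). The remaining genes that rose were SMAD1, SMAD6, TGIF2, SMURF1, NEDD4L, WWP1 and USP15 (0.49, 0.30, 0.33, 0.16, 0.16, 0.28 and 0.18). The call of SMAD6 was lost without CP+siNAT10 replicate 3 (0.24), and that of NEDD4L without CP+siNC replicate 1 (0.12) or CP+siNAT10 replicate 2 (0.13). Genes known to restrain the signal were thus found among those that rose (SKI, PMEPA1, SMAD6, TGIF2, SMURF1, NEDD4L and WWP1) and among those that fell (SKIL, PPM1A, SMURF2 and TRIM33).

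Of 16 tested genes known as TGF-beta targets, 2 rose and 7 fell (56.2% called, beside 44.1% of all genes tested). Their median log2 fold change was -0.12. CCN2, which encodes connective tissue growth factor, was at 89.8, 92.4 and 95.1 CPM in CP+siNC and at 59.6, 56.5 and 60.1 CPM in CP+siNAT10. It fell without overlap to 63.6% of the control level (log2 fold change -0.65, SE 0.0400, adjusted p = 1.12e-13, edgeR). BHLHE40, a transcriptional repressor, rose from 42.1 to 77.1 CPM (0.88, adjusted p = 1.45e-15), and SNAI2, a repressor of epithelial genes, from 23.9 to 30.1 CPM (0.34, adjusted p = 3.36e-05). The AP-1 subunit gene JUNB fell from 49.4 to 35.6 CPM (-0.47, adjusted p = 2.25e-09). ACTA2, the myofibroblast actin, stayed under 1 CPM, at 0.834 and 0.525 CPM (adjusted p = 0.0910, edgeR). The calls of COL7A1 and KLF10 (-0.11 and -0.13, adjusted p = 0.0170 and 0.0112) were lost without CP+siNC replicate 3 (-0.09 and -0.10) and with library size scaling alone (-0.07 and -0.09), where 3 target genes were higher and 5 lower, and that of COL7A1 also without CP+siNAT10 replicate 3 (-0.07).

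Fibrosis and matrix genes were called in 15 of 21 tested genes, 7 higher and 8 lower (71.4%, beside 44.1% of all genes tested). Their median log2 fold change was 0.01. COL5A1, a fibrillar collagen chain, was at 19.0, 23.2 and 21.1 CPM in CP+siNC and at 44.3, 46.0 and 43.4 CPM in CP+siNAT10. All libraries with NAT10 siRNA were high, and the log2 fold change was 1.07 (SE 0.0575, adjusted p = 6.33e-15, edgeR). LOX, which encodes the enzyme that crosslinks collagen and elastin, was at 20.5, 19.6 and 20.4 CPM in CP+siNC and at 6.41, 7.46 and 8.32 CPM in CP+siNAT10. All of its CP+siNAT10 libraries were low, and the log2 fold change was -1.43 (SE 0.0818, adjusted p = 2.56e-14, edgeR). FBN1, the microfibril protein that tethers latent TGF-beta binding proteins, rose from 31.5 to 56.4 CPM (0.84, adjusted p = 2.05e-13), and the proteoglycan gene VCAN rose from 167 to 242 CPM (0.54, adjusted p = 4.91e-13). The basement membrane collagens COL4A1 and COL4A2 rose by 0.31 and 0.33 on the log2 scale, and CCN1, a relative of CCN2, fell from 187 to 141 CPM (-0.40, adjusted p = 2.08e-10, edgeR). COL1A1 rose from 10.5 to 13.7 CPM (0.38, adjusted p = 0.000622), and COL1A2 and POSTN did not pass the filter on low counts. Collagen genes were not all on the higher side, since COL6A1 and COL6A2 fell by 0.23 and 0.15 on the log2 scale (adjusted p = 1.19e-06 and 0.000833, edgeR). LOXL1, whose groups overlapped, was called lower (-0.19, adjusted p = 0.0441), but the call was lost in 9 of 14 alternatives, among them DESeq2 (-0.20) and the fits without CP+siNC replicate 1 (-0.19), CP+siNC replicate 3 (-0.17), CP+siNAT10 replicate 1 (-0.15) or CP+siNAT10 replicate 3 (-0.16).

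Of 9 tested cell surface partners of fibronectin, thrombospondin-1 and TGFBI, 5 rose and 1 fell (66.7% called, beside 44.1% of all genes tested). Their median log2 fold change was 0.14. SDC4, a syndecan that binds fibronectin, rose from 103 ± 1.49 to 153 ± 6.10 CPM (SD, n = 3; log2 fold change 0.58, adjusted p = 2.05e-13, edgeR). The fibronectin receptor subunits ITGA5 and ITGB1 rose by 0.26 and 0.14 on the log2 scale (adjusted p = 5.59e-06 and 0.000809, edgeR), and ITGB3, a beta subunit that pairs with ITGAV, rose by 0.36 (adjusted p = 3.57e-08). LRP1, an endocytic receptor for thrombospondin-1, rose by 0.26 (adjusted p = 0.000272). ITGA3, a subunit of a laminin receptor, fell by 0.37 on the log2 scale (adjusted p = 1.57e-09, edgeR).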

How the data were processed

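RNA of the 6 libraries was made with a stranded kit that adds unique molecular identifiers. The deposited values are raw gene counts, which the authors obtained with featureCounts. The submitters' processing notes name Trimmomatic 0.36, STAR 2.5.3a, featureCounts, Subread 1.5.1, edgeR 3.12.1 and GRCh38. Whether reads sharing an identifier were merged, the strand setting and the annotation release are not given in the sources used here. GENCODE 29 held 95.3% of the genes tested, 99.9% of them at an overlapping place.

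edgeR 4.0.16 was run in R 4.3.3. The filterByExpr function, with a minimum count of 10 and a minimum total of 15, left 19874 genes, which held 99.8% of counts in every library. TMM scaling was applied, the groups were tested with glmQLFit and glmQLFTest, and Benjamini-Hochberg adjustment covered the whole table tested. The procedure was tested on simulated data. Lists are described by counts of calls and medians. Alternatives were RLE, upper quartile and no scaling, no filter and a stricter filter, a replicate block, DESeq2 1.42.0, glmTreat against a 1.5-fold change, and omission of each library. Within a group, libraries differed by 1.74 to 2.55 in chi-square per gene, above sampling noise, and across groups by 18.6 to 23.0. Ligand shares were compared with an exact permutation test. Besides the 9 genes, the text names NAT10, TGFB3, CCN2, in each list up to 4 called genes with the smallest p and a mean of at least 5 CPM, the 3 genes most like THBS1, and marker genes; further list genes were chosen after their values were seen, and 1 gene that the rule names is not reported here. The 9 genes and the lists were chosen with earlier results of these data known. Protein sequences were not analysed here. Python 3.11.15 and matplotlib 3.10.9 were used for motif searches and plots.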

Additional observations from a re-analysis of the deposited data

How the results depend on the processing

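Under the 14 alternatives, the 9 genes and NAT10 kept their direction. FN1 (0.69 to 0.74), THBS1 (-1.13 to -1.07) and NAT10 (-0.85 to -0.79) passed the threshold in all 14. Tested against a fold change of 1.5 with glmTreat, a stricter question, 2 of the 9 genes were called, 1 higher (FN1) and 1 lower (THBS1); TGFB1 (-0.64), TGFB2 (0.19), TGFBR1 (-0.34), TGFBR2 (0.38) and TGFBI (0.42) were not, and these 5 were called in the other 13 alternatives. SMAD3 was called with library size scaling alone (0.12). There, log2 fold changes of all genes tested were higher by a median of 0.0374 than with TMM scaling. The part of this shift in the call of SMAD3 was not tested. SMAD7 was called in none.

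Genes called numbered 451 with glmTreat (163 higher, 288 lower), beside 8771. In the lists of pathway genes, calls with glmTreat were left in the related ligands (1 higher), the target genes (1 higher) and the matrix genes (2 higher, 1 lower), and none in the others. Genes called with a log2 fold change over 1 in size numbered 711 without a filter, 202 with the stricter filter, which tests fewer genes, and 252 with glmTreat, beside 464. Without division by gene length, the share of TGFB2 among ligand counts was higher by 8.248 percentage points in CP+siNAT10. The sign of TGFB3, which was not called, turned with library size scaling alone (0.015) and in fits without 1 library, which ranged from -0.107 to 0.0404. SMAD6 was not called without CP+siNAT10 replicate 3 (0.24).

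With the replicate number as a replicate block, 8526 genes and 7 of the 9 genes were called. Deviations of libraries with the same number correlated at 0.0112, 0.0671 and -0.205 over 12304 genes, and not every library correlated best with its own number, so the numbers were not taken as pairs.

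With 3 libraries per group, SMAD7 at 137 to 207 counts had the largest standard error of the 9 genes.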
